A study of Mus musculus with 2 samples.

Results

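The miR-103 and miR-107 family of the mouse consists of 3 microRNA (miRNA) genes, Mir107, Mir103-1 and Mir103-2, each inside a gene of a pantothenate kinase. They were found by symbol among the 2202 miRNA genes that small RNA sequencing measured in 2 hearts, and all 3 were listed. The family was selected on measured values: the level of Mir107 and its difference between the hearts were known when it was chosen, so the levels and ratios of its members are given as a description, without tests. The hearts came from female mice of the strain B6CASTF1/J, a cross of C57BL/6 and CAST mice, with no treatment named; their age is given as 36 days, although a further label has months as the unit. They form 1 group of 2 libraries, labelled biological replicates 1 and 2, which have separate tissue records and share 1 donor code. Errors are therefore the spread between 2 hearts, and no comparison of conditions exists.

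A miRNA is a short RNA cut from a hairpin in a longer transcript. Its bases 2 to 8, the seed, pair with target mRNAs and largely decide which mRNAs it represses. Pantothenate kinases carry out the first and rate-limiting step of coenzyme A synthesis from vitamin B5, and coenzyme A carries the acyl groups that enter fatty acid oxidation, the main energy source of the adult heart. miR-103 and miR-107 are known for their effects on insulin sensitivity and lipid metabolism, and for repressing Dicer, the enzyme that cuts miRNAs from their hairpins.

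The 3 genes are best told apart by their sequences, which also decide how their reads can be counted. The arms below are the RefSeq sequences (GRCm38.p6, the same build as mm10), written 5′ to 3′, with the seed in capitals; all 3 members matched by symbol. Both arms of each hairpin are shown, since the members differ by single bases.
miR-107-3p of Mir107: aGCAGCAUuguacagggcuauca
miR-103-3p of Mir103-1 and of Mir103-2: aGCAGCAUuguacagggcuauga
miR-107-5p of Mir107: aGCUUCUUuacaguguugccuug
miR-103-2-5p of Mir103-2: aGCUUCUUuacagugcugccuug
miR-103-1-5p of Mir103-1: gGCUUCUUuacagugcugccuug

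The 3p arm, from which the family takes its name, is the same over its 23 nt in Mir103-1 and Mir103-2. miR-107-3p differs from it by 1 substitution near the 3′ end, G22C, with positions counted from 1 at the 5′ end and the base of miR-103 first. All 3 genes share the 3p seed GCAGCAU. Among the 1738 mature mouse miRNAs of the RefSeq table, no other gene has that seed. The 5p arms also share 1 seed, GCUUCUU, which again occurs in these 3 genes alone. Mir103-1 and Mir103-2 differ by G1A in the 5p arm, and Mir103-2 and Mir107 by C16U.

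The whole hairpins are printed with both arms in capitals, to show that the genes differ mainly outside the arms.
Mir107: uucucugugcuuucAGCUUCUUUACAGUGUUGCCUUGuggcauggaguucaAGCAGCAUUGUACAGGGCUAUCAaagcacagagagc
Mir103-1: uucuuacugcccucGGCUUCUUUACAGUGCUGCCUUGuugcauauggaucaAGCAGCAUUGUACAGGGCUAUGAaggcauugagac
Mir103-2: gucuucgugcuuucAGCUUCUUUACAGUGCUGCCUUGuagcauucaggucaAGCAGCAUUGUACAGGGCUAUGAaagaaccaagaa

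The arms lie at the same places in the 3 hairpins, bases 15 to 37 and 52 to 74. Over the whole hairpin, Mir107 was 83.9% identical to Mir103-2 (73 of 87 aligned columns) and 80.5% to Mir103-1 (70 of 87). Mir103-1 and Mir103-2, whose 3p arms are identical, matched at 80.2% of positions (69 of 86).

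Mir107 (ENSMUSG00000065594.1) lies on chromosome 19, 34820687 to 34820773, minus strand (mm10), within the fifth intron of Pank1. Mir103-1 (ENSMUSG00000065553.1) lies on chromosome 11, 35782396 to 35782481, plus strand, within the fifth intron of Pank3. Mir103-2 (ENSMUSG00000065563.1) lies on chromosome 2, 131288052 to 131288137, plus strand, within the fifth intron of Pank2. In the principal transcript of each host, intron 5 is the fifth of 6, it lies between coding exons, and the hairpin is on the strand of the host. From the start of the principal host transcript the hairpin is 57144 bp away in Pank1, 25552 bp in Pank2 and 12912 bp in Pank3. The introns differ in length, with 7282 bp in Pank1, 5801 bp in Pank2 and 1740 bp in Pank3. The hairpin starts 326 bp after the upstream exon in Pank1 and 454 bp in Pank2, with 6869 bp and 5261 bp left to the downstream exon. In Pank3 it lies nearer the middle, 688 bp after the upstream exon and 966 bp before the next. Every annotated host transcript that spans a hairpin has it in an intron (3 of 3 for Pank1, 7 of 7 for Pank2 and 1 of 1 for Pank3). No other measured miRNA gene lies in these hosts. Host mRNAs were not part of these libraries.

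**Figure D1:**
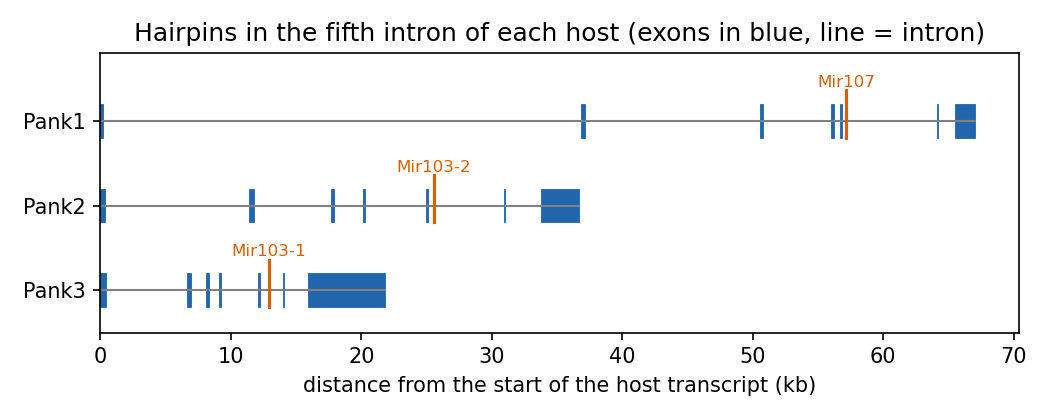
Principal transcripts of Pank1, Pank2 and Pank3, with distance from the transcript start in kb on the x axis, exons as blue blocks, introns as lines and the hairpin as an orange mark. Each hairpin sits in intron 5 of 6, near the upstream exon in Pank1 (326 bp) and Pank2 (454 bp) and nearer the middle in Pank3 (688 bp from the upstream and 966 bp from the downstream exon).

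The deposited counts hold reads that map to a single place, and a separate row gives the reads with several mapping places, 42.0% of all reads in replicate 1 and 39.8% in replicate 2. How long a read must be to be told apart thus sets what each member's count can hold. A read that starts at base 1 of miR-107-3p is found in no other measured miRNA gene once it reaches 22 nt, 1 nt short of the annotated arm. A read that starts at base 1 of miR-103-3p needs 25 nt, 2 nt more than the annotated arm, in both Mir103-1 and Mir103-2. A full-length miR-103-3p read therefore matches both Mir103 genes equally. In the 5p arm, 16 nt from base 1 are enough for each of the 3 genes. When a 5p read starts 1 base later, 16 nt still suffice for Mir107, but Mir103-1 and Mir103-2 need 24 nt.

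Over the whole hairpin, 92.4% of the windows of 22 nt were unique for Mir107 (61 of 66), 87.7% for Mir103-1 (57 of 65) and 84.6% for Mir103-2 (55 of 65). Every shared window recurred only in another member of the family. With windows of 16 nt the unique shares were 76.4%, 71.8% and 60.6%. With windows of 25 nt Mir107 was unique throughout (63 of 63), while 3 windows stayed shared between Mir103-1 and Mir103-2. Allowing 1 mismatch, a setting added after seeing the data, left 65.2%, 69.2% and 56.9% of the 22 nt windows unique for Mir107, Mir103-1 and Mir103-2.

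**Figure D2:**
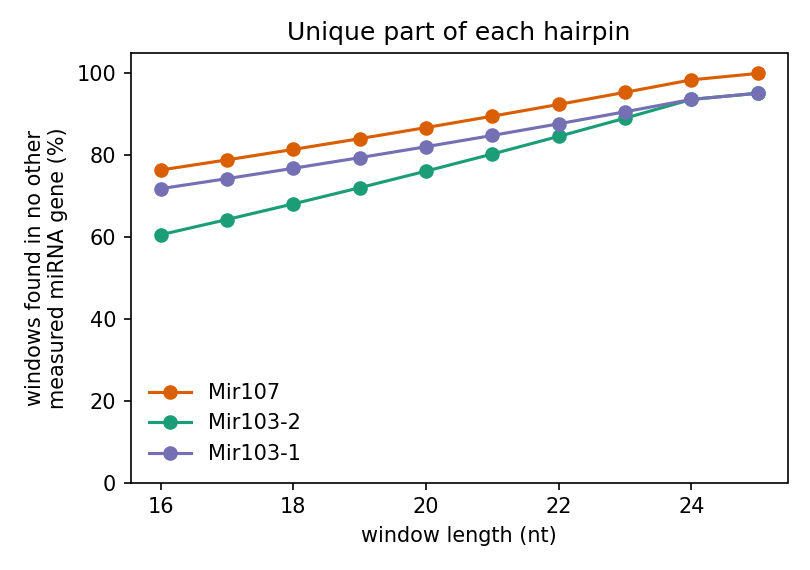
Share of windows of a hairpin, in percent, that occur in no other measured miRNA gene, against window length from 16 to 25 nt, with 1 line per member. Mir107 lies above both Mir103 genes at every length and reaches 100% at 25 nt, where both Mir103 genes stand at 95.2%.

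Counts were taken on the gene's strand and scaled to CPM, counts per 1000000 reads assigned to miRNA genes, of which replicate 1 had 2074961 and replicate 2 had 1766135. A single read is thus worth 0.482 CPM in the first library and 0.566 CPM in the other. Exact intervals at the 95% level are given, which cover counting error only and not the spread between hearts. They treat reads as independent, which PCR copies are not, so even for counting error they can be too narrow. The hairpins have nearly the same length (87, 86 and 86 nt) and all annotated arms have 23 nt, so the CPM of the members are compared without division by length. The cardiomyocyte genes Mir208a (4439 ± 891 CPM, SD, n = 2) and Mir499 (2844 ± 892 CPM), which lie in myosin genes, were abundant in both libraries. Mir1a-1, Mir1a-2, Mir133a-1 and Mir133a-2, heart miRNA genes that each share a mature sequence with a second gene, had 3.91, 47.8, 2.49 and 1.05 CPM. Between the libraries, 19.8% of the 359 genes with 10 or more counts differed 2-fold or more, 9.75% towards replicate 1.

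Mir107 held nearly all reads assigned to the family. It had 2788 counts in replicate 1 and 423 in replicate 2, which is 1344 CPM (exact Poisson interval 1294 to 1394) and 240 CPM (217 to 263). Its mean of 792 ± 781 CPM (SD, n = 2) placed it at rank 77 of 2202 miRNA genes, with a spread nearly as large as the mean. Replicate 1 is the high library, and the counting intervals of the libraries do not overlap. In the order of mean levels Mir107 stood between Mir425 (794 ± 48.6 CPM) and Mir10b (786 ± 355 CPM), and its distance to both is far within its own spread. In replicate 1 it lay above both, which had 1718 and 2152 counts, and in replicate 2 below both, which had 1341 and 944.

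Mir103-2 was present at a low count. It had 32 counts in replicate 1 and 8 in replicate 2, or 15.4 CPM (10.5 to 21.8) and 4.53 CPM (1.96 to 8.93). Its mean of 9.98 ± 7.70 CPM gave rank 265, between Mir3061 (10.04 ± 2.61 CPM) and Mir212 (9.96 ± 1.13 CPM), from neither of which it differed beyond its spread. Again replicate 1 is the high library, without overlap of the counting intervals.

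Mir103-1 was near the floor. It had 4 counts in replicate 1 and 1 in replicate 2, or 1.93 CPM (0.525 to 4.94) and 0.566 CPM (0.0143 to 3.15), a mean of 1.25 ± 0.963 CPM. The intervals overlap, and the exact interval of a count of 0 would reach 1.78 CPM in replicate 1 and 2.09 CPM in replicate 2. In order of level it shared rank 415 with genes of the same counts. Of the 2202 genes, 1574 had no count in either library. A detection limit of 2 CPM in both libraries was met by Mir107 and Mir103-2 and not by Mir103-1.

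**Figure D3:**
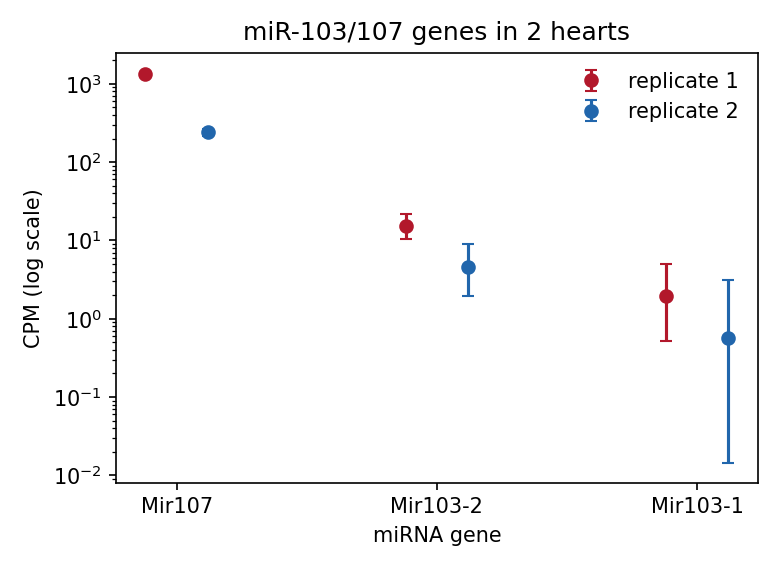
CPM of Mir107, Mir103-2 and Mir103-1 on a log axis, with 1 point per library and bars for the exact Poisson interval of its count. The points fall from 1344 and 240 CPM for Mir107 to 15.4 and 4.53 CPM for Mir103-2 and 1.93 and 0.566 CPM for Mir103-1, with replicate 1 above replicate 2 each time.

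The order within the family was the same in both hearts, though in replicate 2 the intervals of Mir103-2 and Mir103-1 overlap. Mir107 made up 98.7% of the family's counts in replicate 1 (exact Clopper-Pearson interval 98.2 to 99.1, 2788 of 2824) and 97.9% in replicate 2 (96.1 to 99.0, 423 of 432). Mir103-2 made up 1.13% (0.776 to 1.60) and 1.85% (0.803 to 3.62), and Mir103-1 0.142% (0.0386 to 0.362) and 0.231% (0.00586 to 1.28). Per count of Mir103-2 there were 87.1 counts of Mir107 in replicate 1 (61.6 to 128) and 52.9 in replicate 2 (26.6 to 123), and these intervals overlap. These shares do not depend on scaling between libraries. Together the 3 genes had 2824 and 432 counts, 0.136% and 0.0245% of all counts of miRNA genes. Since full-length miR-103-3p reads match 2 genes, the shares compare what was counted at each gene and not the levels of mature miR-107 and miR-103. The reads in the multiple-mapping row, 2355334 and 1985503, are not split by miRNA, so the level of miR-103-3p cannot be read from these counts.

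All 3 members were counted higher in replicate 1. Ratios between the libraries were taken after TMM scaling (trimmed mean of M values, edgeR), which centres the bulk of genes on no difference. On that scale Mir107 was 6.31-fold higher in replicate 1 (exact interval 5.69 to 7.01), and Mir103-2 3.83-fold (1.73 to 9.62); with library size alone the folds were 5.61 and 3.40. Mir103-1, with 4 and 1 counts, had a ratio of 3.83 with an interval of 0.379 to 189, so its direction was not detectable at this depth. Both members with 10 or more counts differed 2-fold or more towards replicate 1, against 9.75% of the genes; the choice of the family used this contrast, so nothing is read from that count. Mir107 and Mir103-2 kept their direction with unscaled library sizes, which move every log2 ratio by 0.17, and with DESeq2 size factors. The genes past 2-fold split by scaling: TMM put 35 towards replicate 1 and 36 towards replicate 2, unscaled library sizes 26 and 50, and DESeq2 size factors 38 and 32.

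Of the 359 genes, 4 had a ratio further towards replicate 1 than Mir107 and 11 further than Mir103-2. Of the 140 genes whose mean reached 100 CPM, 2 lay further than Mir107. The genes nearest to Mir107 in log2 ratio (-2.66, replicate 2 over replicate 1) among the other 139 were Mir451a (-3.02), Mir144 (-2.04) and Mir31 (-3.63). For Mir103-2 (-1.87) they were Mir144, Mir15b (-1.58) and Mir142 (-1.36), and for Mir103-1 (-1.52) Mir15b, Mir142 and Mir34a (-1.25). Mir31 had 1287 and 99 counts, Mir142 1037 and 387, and Mir34a 5457 and 2193. Likeness here rests on 2 libraries, so for Mir107 and Mir103-2 it says only that these genes were high in the same heart. For Mir103-1, whose direction was not detectable, nothing is read from it.

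Markers of red blood cells were higher in the same heart as Mir107. Mir451a and Mir144, a pair of neighbouring genes abundant in red cells, had 85885 and 10135 counts and 7067 and 1649 counts in replicates 1 and 2. Mir486, the third gene of the erythroid list, had 2266 and 1620. All 3 of 3 had a ratio towards replicate 1, 2 of them past 2-fold. Over all 359 genes, 181 had a ratio towards replicate 1 and 9.75% passed 2-fold in that direction. The sum of the erythroid list was 45889 CPM in replicate 1 and 7589 CPM in replicate 2, 6.80-fold on the TMM scale (6.68 to 6.92). Most of that sum was Mir451a, with 41391 and 5739 CPM. By gene, Mir451a was 8.11-fold, Mir144 4.10-fold and Mir486 1.34-fold higher in replicate 1. With the erythroid genes left out of the scaling, the log2 ratio of Mir107 was again -2.66, which bears on the scaling alone. The part of red cells in the ratio of Mir107 was not tested. In whole tissue, more cells of a type and more RNA per cell cannot be told apart.

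The sums of other cell type lists differed less, or in the other direction. Of all 359 genes with 10 or more counts, 35 (9.75%) were past 2-fold towards replicate 1 and 36 towards replicate 2. The endothelial list (4 genes, 99059 CPM in replicate 1 and 66887 CPM in replicate 2) was 1.67-fold higher in replicate 1, with 1 of 3 genes of 10 or more counts past 2-fold. The leukocyte list (6 genes) summed to 5448 and 6485 CPM, with 1 of 5 genes past 2-fold each way. The fibroblast list (5 genes, Mir199a-1 at 0 in both) summed to 2599 and 3689 CPM, with 1 of 4 past 2-fold towards replicate 1. The smooth muscle list (2 genes) summed to 43118 and 44232 CPM but was 1.10-fold higher in replicate 1 with TMM, so its direction flips with the scaling. The cardiomyocyte list (8 genes) stood at 6211 CPM in replicate 1 and 8750 CPM in replicate 2, with 1 of 7 past 2-fold each way. The heart with more Mir107 had the lower sum, which was mostly Mir208a and Mir499. By gene the list was mixed, since 3 of the 7 had a ratio towards replicate 1. The epithelial list (7 genes) had 351 and 714 CPM, with 3 of 7 past 2-fold towards replicate 2. The embryonic list, 6 genes of the Mir290a to Mir295 cluster, had 3 counts in replicate 1 and 335 in replicate 2. Of 6 neuronal genes 5 had no count, and the hepatocyte gene Mir122 had 57.8 and 31.7 CPM, 2.05-fold higher in replicate 1. The part of these cells in the members' ratios was not tested.

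**Figure D4:**
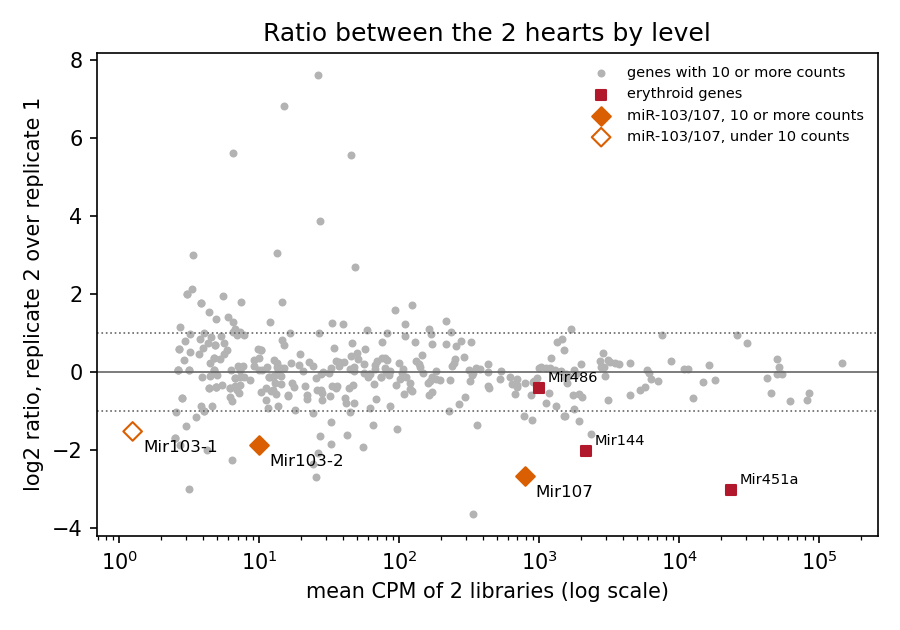
Log2 ratio of replicate 2 over replicate 1 (TMM scaling) against mean CPM on a log axis, with 1 grey point per gene with 10 or more counts, orange diamonds for the 3 members (open where under 10 counts) and red squares for the erythroid genes; dotted lines mark 2-fold. Mir107 at -2.66 lies between Mir144 at -2.04 and Mir451a at -3.02, away from the bulk of genes at its level. The third erythroid gene, Mir486, stands nearer to 0, at -0.42.

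miR-103 and miR-107 belong to a wider group with the miR-15 family, in which the bases AGCAGC stand near the 5′ end and which is known for repressing cell cycle genes such as cyclins. The offset between both sides can be read from the arms, again with the seed in capitals.
miR-107-3p: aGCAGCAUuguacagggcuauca
miR-15a-5p: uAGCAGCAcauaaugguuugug
miR-15b-5p: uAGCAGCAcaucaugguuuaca
miR-16-5p of Mir16-1 and of Mir16-2: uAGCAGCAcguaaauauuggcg
miR-195a-5p: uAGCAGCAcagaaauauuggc
miR-322-5p: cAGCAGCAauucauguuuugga
miR-497a-5p: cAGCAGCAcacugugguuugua
miR-503-5p: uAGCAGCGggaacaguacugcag

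In miR-107-3p the shared bases start at base 1, and in the miR-15 side at base 2, so the seeds differ by a shift of 1 base. The seed of miR-503-5p, AGCAGCG, differs in its last base as well. The seed AGCAGCA occurs in 11 genes of the RefSeq table, none of them Mir107, Mir103-1 or Mir103-2. The miR-15 side was a list drawn up with earlier results of these data known.

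Of the 10 measured genes of the miR-15 side, 8 were detected and 2, Mir195b and Mir497b, had no count. They summed to 12153 ± 2251 CPM (SD, n = 2), against 803 ± 789 CPM for the 3 genes in Pank introns. The family thus held 9.01% of the counts of the whole group in replicate 1 (8.69 to 9.33) and 2.26% in replicate 2 (2.06 to 2.48). Full-length reads of miR-103-3p and of miR-16-5p each match 2 genes, while those of the other detected arms of the miR-15 side match 1. These sums and shares therefore compare what was counted at each gene and not the levels of the mature miRNAs. Mir322, the mouse counterpart of human miR-424, was the highest with 4454 ± 905 CPM. Mir15b followed with 2365 ± 1513 CPM, Mir16-1 with 1756 ± 363 CPM and Mir195a with 1686 ± 984 CPM. Mir15a (893 ± 446 CPM), Mir107 and Mir497 (693 ± 3.70 CPM) came next, and these neighbours did not differ beyond the spread of Mir107. Mir16-2 had 232 ± 4.55 CPM and Mir503 73.8 ± 1.39 CPM, each above Mir103-2 in both libraries.

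On the miR-15 side every ratio was nearer to 0 than that of Mir107, while Mir15b and Mir15a lay within the interval of Mir103-2. Of its 8 genes with 10 or more counts, 7 had a ratio towards replicate 1, 2 of them past 2-fold, Mir15b (2.98-fold, 2.85 to 3.13) and Mir15a (2.35-fold, 2.19 to 2.53). Over all 359 genes, 181 had a ratio towards replicate 1, and 9.75% were past 2-fold towards it. Mir195a went the other way, with 2055 and 4208 counts, a log2 ratio of 1.10. Mir503 changes side with unscaled library sizes (72.8 and 74.7 CPM). The median log2 ratio was -0.40 (range -1.58 to 1.10), beside -0.01 over all 359 genes and -2.66 for Mir107. As a sum, the miR-15 side was 1.46-fold higher in replicate 1 (1.44 to 1.49). No test was run on the list.

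Mir16-1 and Mir16-2 are a second pair with 1 mature sequence in 2 genes. A read from base 1 of miR-16-5p needs 24 nt to be told apart, 2 nt more than the annotated 22 nt, the same excess as for miR-103-3p. Mir16-1 had 4177 and 2648 counts and Mir16-2 488 and 404, while Mir103-2 had 32 and 8. The counts do not give the arm or length of these reads, and what sets the pairs apart was not tested. Mir16-1 made up 89.5% (88.6 to 90.4) and 86.8% (85.5 to 87.9) of that pair's counts. Among the other detected genes of the miR-15 side, 16 or 17 nt from the start of the printed arm are enough, leaving aside Mir497b, which overlaps Mir497 on the other strand.

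**Figure D5:**
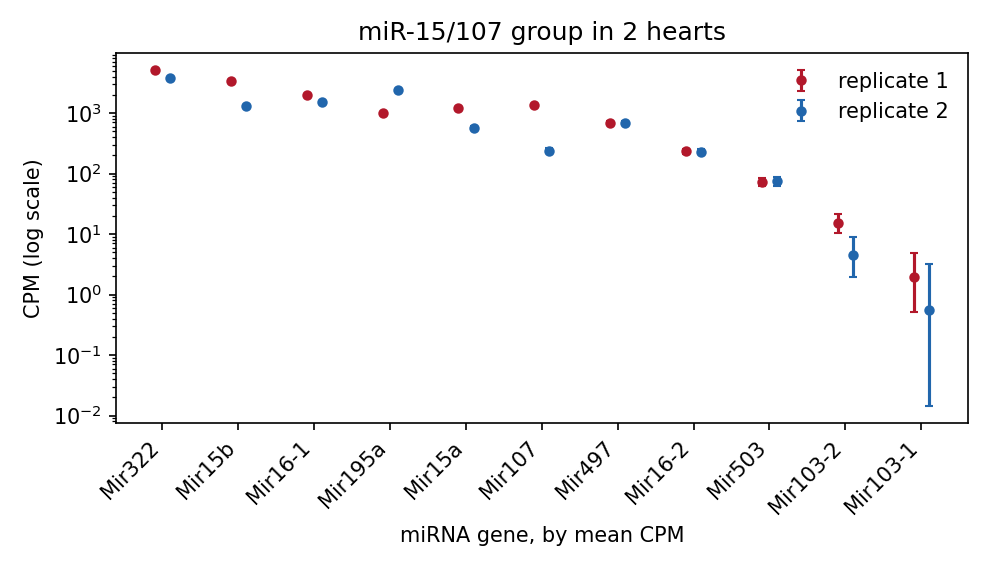
CPM on a log axis of the 11 genes of both families with any count, ordered by mean, with 1 point per library and bars for the exact Poisson interval. Mir107 shows the widest gap between libraries among genes above 100 CPM, 1344 against 240 CPM, while for Mir497, Mir16-2 and Mir503 the points of both libraries nearly coincide.

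Among other miRNA genes in hosts of lipid and energy metabolism, Mir378a, in a gene for a coactivator of mitochondrial genes, had 146001 ± 28746 CPM, and Mir33, in the gene of a sterol-sensing transcription factor, 12 counts in each library. Their log2 ratios were 0.23 and 0.06 with TMM, against -2.66 for Mir107. That of Mir33 is no larger than the 0.06 by which DESeq2 size factors lower all log2 ratios.

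No read lay on the strand opposite to Mir107, Mir103-1 or Mir103-2 in either library. At the library sizes used here, the exact interval of a count of 0 reaches 1.78 CPM in replicate 1 and 2.09 CPM in replicate 2. Their counts without regard to strand equalled the sense counts, 2788 and 423, 4 and 1, and 32 and 8, and GENCODE M21 places no gene other than the host over any of the hairpins. The share of reads of Mir107, Mir103-1 and Mir103-2 among all reads of the libraries was lower than their CPM, since most reads were assigned to no miRNA gene. Mir107 had 497 and 84.8 reads per 1000000 of all reads, Mir103-2 5.71 and 1.60, and Mir103-1 0.713 and 0.2004.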

How the data were processed

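Small RNA was sequenced in 2 mouse hearts. The values are raw counts, whole reads for each miRNA gene of GENCODE M21 on mm10, per the notes the authors deposited; for aligner and counter, the sources used here name none. Of 3 columns without names, the one the values show to be sense was used, and the 4 rows that name no gene (63.0% of reads in replicate 1, 64.6% in replicate 2) were left out of library sizes. Symbols, positions and hosts came from GENCODE M21 (2202 of 2202 IDs matched) and sequences from RefSeq. Libraries were scaled by TMM in edgeR 4.0.16, and log2 ratios of genes with 10 or more counts took 0.5 as prior count; DESeq2 1.42.0 size factors were an alternative. Intervals came from scipy 1.17.1. Windows of 22 nt were searched on both strands of the measured miRNA genes, since no genome sequence was used. Scripts were tested on simulated data.

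The members and lists were chosen with earlier results of these data known. Named genes are the members, the miR-15/107 list, genes next to a member in mean CPM, the 3 genes of 100 CPM or more nearest to it in log2 ratio, and cell type and metabolic host lists. Mir145, Mir142hg and Mir497a of those lists matched no symbol. With 1 group of 2 libraries, no test was run. The CAST allele was not treated apart from the reference.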

Additional observations from a re-analysis of the deposited data

How the results depend on the processing

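With other library sizes or strand columns, the mean levels and their sum moved by less than 1 SD, which is wide with 2 hearts. The share of Mir107 could not move, since library size cancels in it and the members' counts without regard to strand equal the sense counts. Leaving out 1 of 2 libraries moves a mean by less than 1 SD whatever the data are, so it says nothing about stability: without replicate 1 the Mir107 level was 240 CPM and without replicate 2 it was 1344 CPM. In the same way Mir103-2 lay between 4.53 and 15.4 CPM, Mir103-1 between 0.566 and 1.93 CPM and the sum between 245 and 1361 CPM, so each level depends on either library by over 1.5 times. For Mir107, counting over all reads gave 291 reads per 1000000, another unit than CPM, and counts without regard to strand gave 1109 CPM. The Mir107 log2 ratio left its counting interval with library size alone (-2.49), with the same direction. The ratio of Mir103-1 went from -1.52 to -0.94 with a prior count of 2. The number of genes that differ 2-fold or more, 71, became 40 among genes with 50 counts, 256 among genes with 1 count, 145 at 1.5-fold and 18 at 4-fold. The share of unique windows over the 3 hairpins, 88.3% at 22 nt, was 69.6%, 72.5%, 75.5%, 78.5%, 81.7% and 84.9% from 16 to 21 nt, 91.7%, 95.3% and 96.8% from 23 to 25 nt, and 63.8% with 1 mismatch allowed. Searching all GENCODE transcripts, also added after seeing the data, left it at 88.3%. A search of the whole genome was not run. Depth limits Mir103-1, with 5 counts in all.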
